A study of Rattus norvegicus with 6 samples.

Results

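The genes described here encode 7 Krüppel-like factors, Klf2, Klf4, Klf5, Klf6, Klf9, Klf10 and Klf15, measured in rat liver after hemorrhagic shock. They were chosen by name, and all 7 were found, each on 1 of the 19345 transcript rows of the array. Livers came from male Sprague-Dawley rats of 90 to 120 days that were bled by tail amputation and infused with Ringer's solution, a balanced salt solution, from that moment on. In the limited group the infusion was given to hold mean arterial pressure at 50 to 60 mmHg, and in the aggressive group it was given with the aim of keeping it over 80 mmHg. Of 6 rats per regimen, 3 livers, taken at 330 min, were each hybridised to a 1-colour NimbleGen array. Both groups share the tail amputation, the anesthesia and the type of fluid, while blood loss and infused volume are not compared here. Rats without shock were not analysed here, so each value sets one regimen against the other and gives no distance from the unbled liver. In whole liver, fewer cells of a type and less RNA per cell cannot be told apart.

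Krüppel-like factors bind GC-rich and CACCC-type DNA through zinc fingers at the C terminus of the protein and activate or repress transcription, depending on the partner they recruit. Several are induced quickly by outside signals: Klf6 by growth and injury signals, Klf9 by glucocorticoids and thyroid hormone, Klf10 by transforming growth factor beta, and Klf2 and Klf4 in endothelium by laminar flow. In hepatocytes Klf15 takes part in the control of amino acid breakdown and of gluconeogenesis.

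Klf6, Klf5 and Klf9 read lower after limited than after aggressive resuscitation, by 2.19-fold, 2.26-fold and 1.55-fold, and in each of them the 3 limited arrays lay below the 3 aggressive arrays. Klf2, Klf4, Klf10 and Klf15 overlapped between the regimens. After adjustment over all rows 0 of the 7 passed limma's moderated test, with adjusted p between 0.0909 for Klf6 and 0.858 for Klf2, whereas 3 had an unadjusted p under 0.05. Over all rows the adjusted test called 0.114% (22 rows), an unadjusted p under 0.05 was reached by 13.1%, and 9.76% had non-overlapping groups with the limited side lower. An unadjusted p under 0.05 with a difference of at least 2-fold towards lower values held for 2 of the 7, Klf5 and Klf6, against 1.59% of all rows. The median log2 difference of the 7, limited minus aggressive, was -0.23, with 6 below 0 and 1 above, against a median of 0.01 over all rows, of which 48.8% lay below 0.

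The 300 bases around the annotated starts of the 3 genes whose regimens did not overlap are shown because these genes read lower together, and run from 250 bases before to 50 bases after the start. They come from RefSeq on the rat assembly GRCr8, in which 5 of the 7 genes were matched, and are printed 5′ to 3′ on the gene's strand. Capitals mark CCAAT boxes (CCAAT, or ATTGG where the box lies on the other strand) and, in Klf6, a CArG box, the element bound by serum response factor in many immediate early genes. Klf6 lies on the minus strand at chr17:69458429-69458728, Klf5 on the plus strand at chr15:82471831-82472130 and Klf9 on the plus strand at chr1:230126396-230126695.
Klf6: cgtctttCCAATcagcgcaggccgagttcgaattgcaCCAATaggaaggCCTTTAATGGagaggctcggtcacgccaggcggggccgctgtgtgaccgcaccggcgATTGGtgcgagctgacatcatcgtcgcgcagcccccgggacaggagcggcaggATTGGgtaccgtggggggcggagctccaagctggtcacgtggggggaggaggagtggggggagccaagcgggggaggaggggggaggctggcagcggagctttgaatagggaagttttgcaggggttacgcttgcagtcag
Klf5: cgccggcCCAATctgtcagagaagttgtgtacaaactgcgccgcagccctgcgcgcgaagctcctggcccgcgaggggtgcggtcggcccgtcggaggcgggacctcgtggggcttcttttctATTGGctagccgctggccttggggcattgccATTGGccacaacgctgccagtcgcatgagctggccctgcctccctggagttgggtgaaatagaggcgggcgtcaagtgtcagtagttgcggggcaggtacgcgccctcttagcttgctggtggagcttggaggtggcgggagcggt
Klf9: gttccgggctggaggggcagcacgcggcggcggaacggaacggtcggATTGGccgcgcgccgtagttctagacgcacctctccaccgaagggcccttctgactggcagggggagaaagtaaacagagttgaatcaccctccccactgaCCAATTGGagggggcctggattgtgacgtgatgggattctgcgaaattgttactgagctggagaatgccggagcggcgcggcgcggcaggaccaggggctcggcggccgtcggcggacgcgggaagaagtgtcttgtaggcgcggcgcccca

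CCAAT boxes, which are bound by nuclear factor Y, occurred 4 times in the Klf6, 3 times in the Klf5 and 3 times in the Klf9 window, counting both strands. In Klf9 the box on one strand overlaps the next on the other. Of 33469 windows of this length in the RefSeq table, 3.02% held at least 3 and 37.5% held at least 1. The Klf15 window held 1 and the Klf4 window 0. The CArG box of Klf6, which starts 201 bases before the gene start and overlaps none of the CCAAT boxes, was the only match to that motif among the 5 genes, and 1.64% of all windows held one. A GC box (GGGCGG, both strands), the class of site that Krüppel-like factors themselves can bind, was found in Klf6, 76 bases before its start, and in none of the other matched genes, against 33.1% of all windows. CACCC (both strands) was found in Klf5, Klf9 and Klf15, against 54.9%, and in Klf9 it overlaps an AP-1 site (TGANTCA), a motif held by 7.33% of all windows. The core of a glucocorticoid response element was in none of the 5 windows, against 0.439% of all. In all, 12 motifs were searched, and CCAAT and CArG were picked for display after the matches were seen. They are letters in a window and not measured sites of binding.

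Klf6, an immediate early factor that is induced in several liver cell types after injury, had intensities of 775, 772 and 840 in the limited arrays and of 1736, 2009 and 1514 in the aggressive arrays. The limited arrays lay within 1.09-fold of each other, and the lowest aggressive array was 1.80-fold above the highest limited one. The mean of Klf6 was 795.8 ± 38.4 in the limited arrays and 1753 ± 248 in the aggressive arrays (SD, n = 3 each). The log2 difference was -1.13 (SE 0.189), with a 95% interval from -1.57 to -0.69. By unadjusted p Klf6 ranked 101st of the 19345 rows, and its adjusted p was 0.0909 (limma), above the threshold of 0.05. Klf6 passed the same test when the variance prior followed intensity and resisted outliers (adjusted p = 0.000150, limma), a setting in which 2.95% of all rows passed, and when rows below the median intensity were removed (adjusted p = 0.00144, limma), where 4.99% passed.

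Klf9, a hormone-induced repressor of the family, had 1407, 1677 and 1776 in the limited arrays and 2585, 2012 and 3002 in the aggressive arrays. The groups did not overlap, but the gap was narrow, the lowest aggressive array being 1.13-fold above the highest limited one. Klf9 averaged 1620 ± 191 in the limited arrays and 2533 ± 497 in the aggressive arrays (SD, n = 3 each), and the log2 difference was -0.63 (SE 0.220, 95% interval -1.15 to -0.12). It did not pass over all rows (adjusted p = 0.304, limma), and it did with the intensity trend and robust prior (adjusted p = 0.0440, limma).

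Klf5, a factor best known for epithelial growth, was dim, with 113, 80.7 and 64.0 in the limited arrays and 226, 124 and 240 in the aggressive arrays. All its limited values lay below the array medians, which were between 212 and 245. In aggressive arrays 2 and 3 it also lay below the median, at 124 against 235 and 240 against 245. In aggressive array 1 it lay above, at 226 against 212. Aggressive array 2 was 1.10-fold above the highest limited array, while aggressive arrays 1 and 3 lay near each other and well above it. Its means were 85.8 ± 24.8 in the limited and 196.4 ± 63.3 in the aggressive arrays (SD, n = 3 each). The log2 difference of -1.17 (SE 0.330) had a 95% interval from -1.95 to -0.40, wider than that of Klf6 at a similar size, and did not pass (adjusted p = 0.223, limma).

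**Figure D1:**
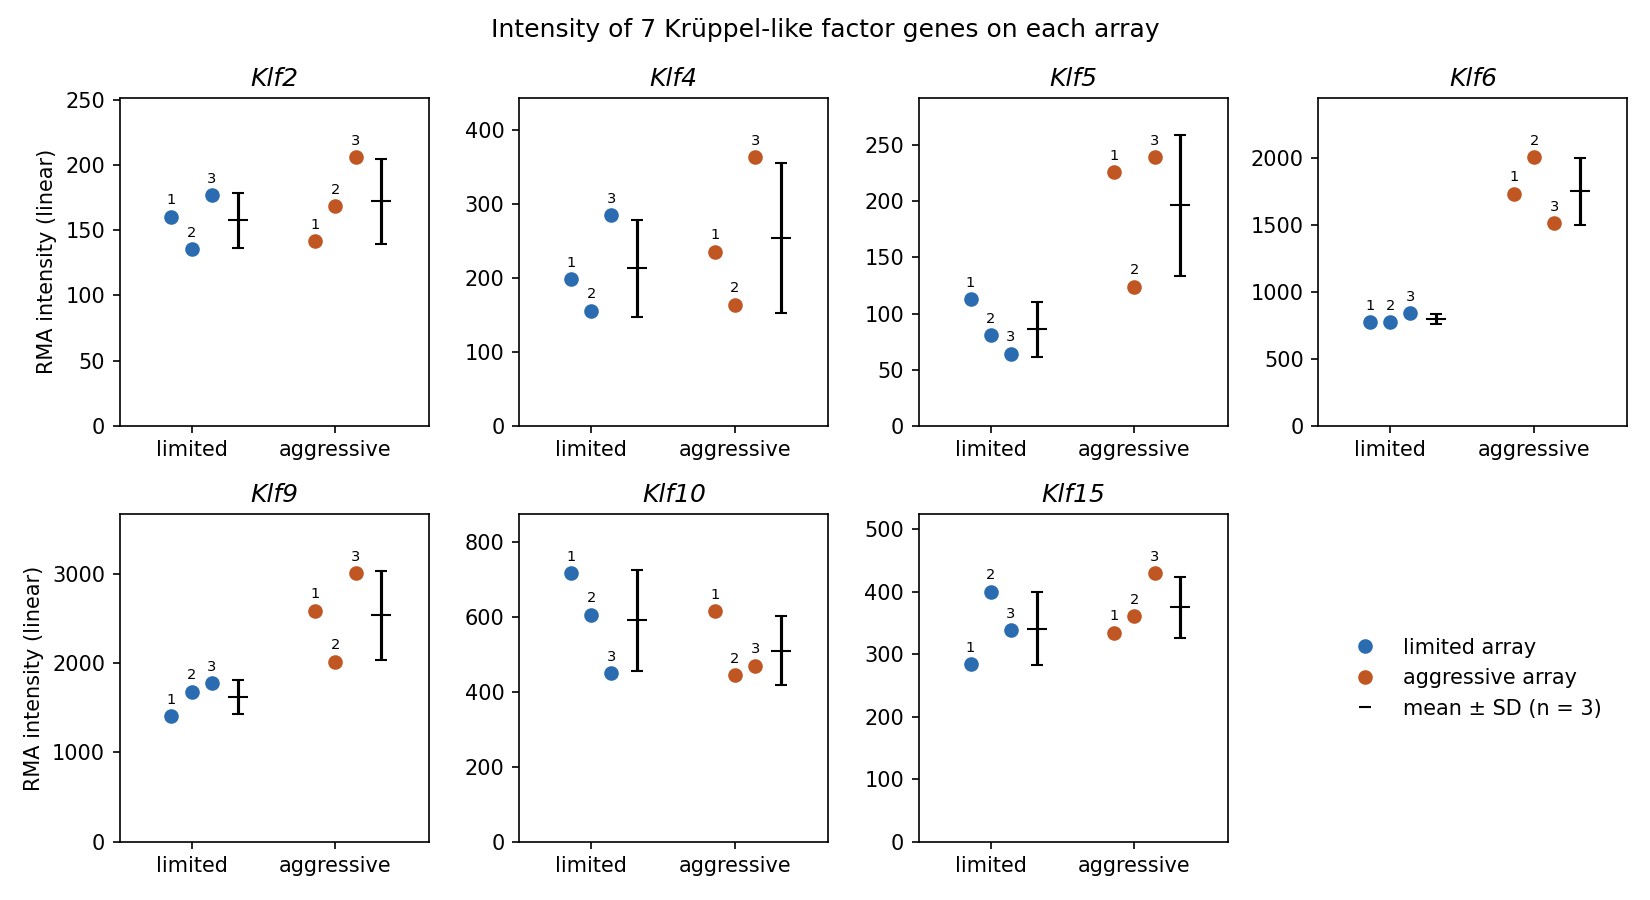
RMA intensity on a linear scale of each Krüppel-like factor gene, with 3 limited and 3 aggressive arrays as numbered points and the mean ± SD in black. Klf6, Klf5 and Klf9 show limited arrays that all lie below the aggressive arrays, and the other 4 genes overlap.

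Klf2 and Klf4, the pair of flow-induced factors of endothelium, overlapped between the regimens. Klf2 had 160, 136 and 177 in the limited arrays and 142, 169 and 206 in the aggressive arrays, a log2 difference of -0.12 (SE 0.218). Its 95% interval, -0.63 to 0.39, leaves room for a value 1.55-fold higher under aggressive resuscitation. Klf4 had 198, 155 and 284 in the limited arrays and 235, 164 and 363 in the aggressive arrays. The highest Klf4 value was 1.83-fold above the lowest within the limited group and 2.22-fold within the aggressive group, so the log2 difference of -0.23 (SE 0.351) was smaller than the spread of either group, and its interval ran from -1.05 to 0.60.

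Klf10, which is induced by transforming growth factor beta, was the 1 gene of the 7 with a higher limited mean. It had 716, 605 and 450 in the limited arrays and 615, 444 and 470 in the aggressive arrays, which overlap, with a log2 difference of 0.20 (SE 0.244, 95% interval -0.37 to 0.77). Klf15 had 284, 400 and 338 in the limited arrays and 334, 361 and 429 in the aggressive arrays. Its log2 difference was -0.14 (SE 0.211, 95% interval -0.64 to 0.35), and the limited values reached both lower than and well into the aggressive range. The adjusted p of Klf2, Klf4, Klf10 and Klf15 lay between 0.773 and 0.858 (limma).

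**Figure D2:**
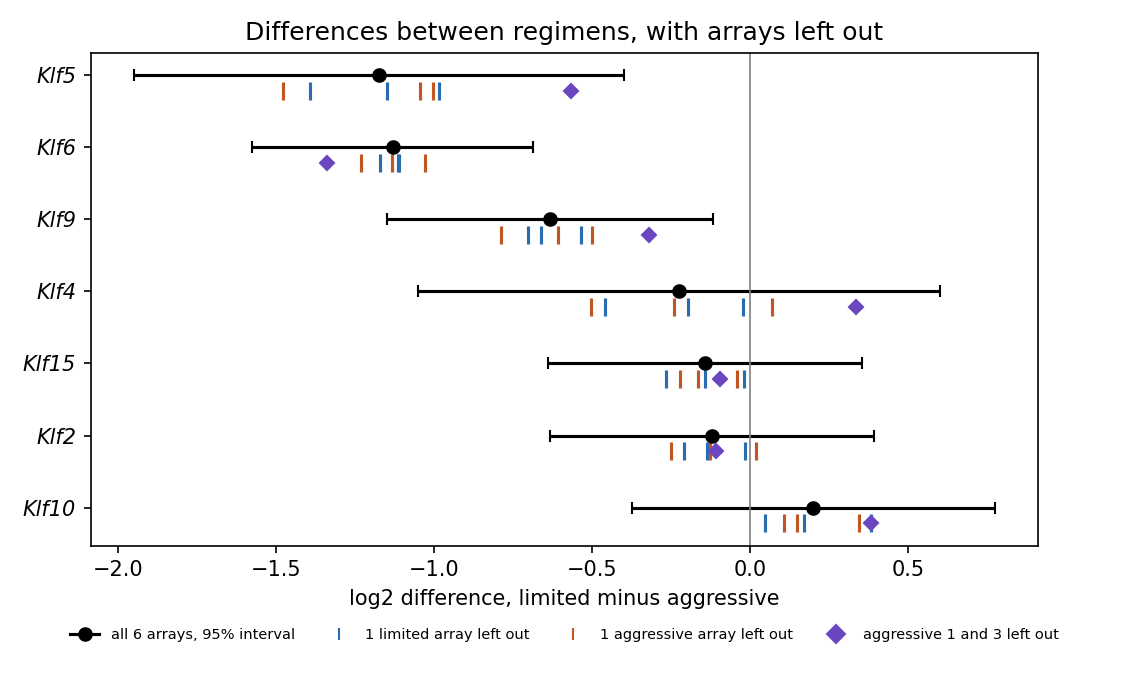
Log2 difference of each gene, limited minus aggressive, with its 95% interval over all 6 arrays (black) and below it the value with 1 limited (blue) or 1 aggressive (orange) array left out and with aggressive arrays 1 and 3 left out (purple). The intervals of Klf5, Klf6 and Klf9 lie below 0, and the purple value of Klf6, at -1.34, is farther from 0 than its value over all arrays.

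Lung transcripts were highest in aggressive arrays 1 and 3. The summed intensity of 11 lung genes, picked with earlier results known, was between 575 and 794 in the limited arrays and 5486, 1810 and 7819 in aggressive arrays 1, 2 and 3, and in arrays 1 and 3 each of the 11 exceeded its limited mean by 4-fold or more. In array 2, 1 of the 11 did so, Car4, a carbonic anhydrase, at 802 against a limited mean of 119, and Pdpn, podoplanin, had 739 there, above its limited values of 163, 76.4 and 360. Several Krüppel-like factors are known to be expressed in lung, Klf2, Klf4 and Klf5 among them. Klf5 was 2.70-fold and 2.87-fold above its limited mean in aggressive arrays 1 and 3, and 1.48-fold in array 2. Klf9 was 1.60-fold and 1.86-fold above in those arrays and 1.25-fold in array 2. Klf4 was 1.14-fold and 1.76-fold above its limited mean in arrays 1 and 3 but below it in array 2, at 0.793 of it. Klf2 was above its limited mean in arrays 2 and 3, at 1.08-fold and 1.32-fold, but below it in array 1, at 0.905 of it. The part of lung RNA in the values of Klf2, Klf4, Klf5 and Klf9 was not tested.

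Klf6 ran the other way, being highest in aggressive array 2, at 2.53-fold above its limited mean, against 2.18-fold and 1.90-fold in arrays 1 and 3. With both arrays left out, the log2 difference was -1.34 for Klf6, -0.57 for Klf5, -0.32 for Klf9 and 0.33 for Klf4, values that rest on 1 aggressive rat, assumed to vary like the limited ones. Of the 7 genes, 4 (Klf4, Klf5, Klf9 and Klf10) had their lowest aggressive value in array 2, and 5 (Klf2, Klf4, Klf5, Klf9 and Klf15) had their highest in array 3.

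**Figure D3:**
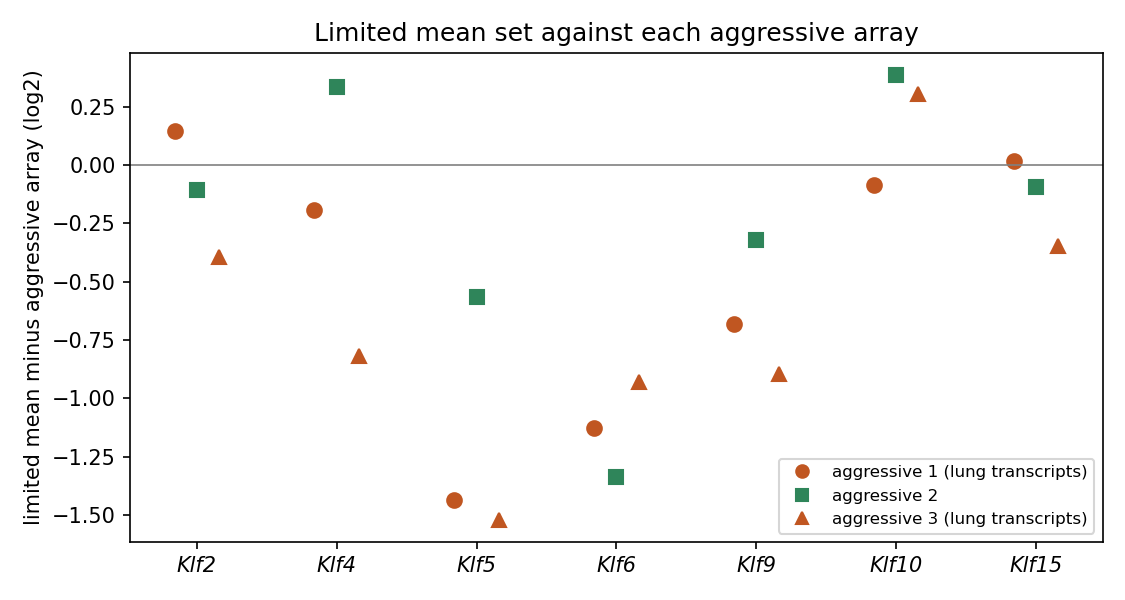
Log2 difference between the limited mean and each single aggressive array, for the 7 genes, with negative values where the aggressive array is higher. Arrays 1 and 3 (orange), where lung transcripts were highest, lie lowest for Klf5 and Klf9, whereas array 2 (green) lies lowest for Klf6.

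The members were also set against each other within arrays, since a ratio of 2 genes on the same array does not depend on that array's scaling. The change of the log2 ratio between regimens was -1.33 for Klf6 over Klf10, -0.99 for Klf6 over Klf15 and -0.83 for Klf9 over Klf10. Klf5 over Klf10 differed by -1.37, and Klf5 over Klf6, which had near-equal differences, by -0.04. Of 21 pairs, 8 reached p = 0.1 in the exact two-sided permutation test over samples, the smallest p that 3 against 3 arrays allow, and the smallest adjusted value over the 21 pairs was 0.262. No pair could therefore pass at 0.05. Each of those 8 pairs held Klf5, Klf6 or Klf9, whose own values did not overlap, so their number is not separate support. The share among pairs of other genes was not computed. The Klf6, Klf5 and Klf9 values themselves also had an exact p of 0.1.

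The genes whose profiles over the 6 arrays lay nearest to each member were listed for the 4 members whose log2 values had an SD of at least 0.3, from 1390 named genes of more than median intensity. Nearest to Klf6 were Igfbp1, a binding protein for insulin-like growth factors made by hepatocytes, Thbs1, which encodes the matrix protein thrombospondin, and Senp2, a SUMO protease, at root mean square distances of 0.098, 0.100 and 0.123 on the log2 scale, against a median of 0.729 over those genes. Thbs1, for instance, averaged 1065 ± 109 in the limited and 2201 ± 232 in the aggressive arrays (SD, n = 3 each). Distances below the median follow from picking the nearest of 1390 genes, and such a regimen difference follows from matching the Klf6 profile. Shared regulation was not tested. Near Klf9 lay Rmdn3, a mitochondrial tether protein, at 0.092 and Ugt1a2, a glucuronosyltransferase, at 0.107.

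Klf5 had no neighbour as close. Spry2, an inhibitor of receptor tyrosine kinase signalling, Pmvk, an enzyme of cholesterol synthesis, and Procr, the endothelial protein C receptor, lay at 0.255 to 0.311. Spry2 had 574, 297 and 520 in aggressive arrays 1, 2 and 3, with the same low value in array 2 as Klf5. Near Klf4 lay Myd88, the adaptor of Toll-like receptors, at 0.190 and Lamb2, a laminin chain, at 0.194, with log2 differences of -0.13 and 0.01.

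Other members of the KLF and SP families were sparsely measured under a symbol, with 4 of 20 listed genes matched. None had an adjusted p under 0.05. Klf11, a close relative of Klf10, had a log2 difference of 0.48 (SE 0.269), and Sp1, which binds the same GC boxes, of -0.05 (SE 0.175). Sp4 differed by 0.52, and Sp7, a bone factor, by 0.80 at intensities of 86.4 ± 10.7 in the limited and 51.0 ± 14.4 in the aggressive arrays (SD, n = 3 each), far below the array medians. Among 8 measured cofactors and turnover enzymes, 0 passed and 3 had an unadjusted p under 0.05, all higher under limited resuscitation, against 13.1% of all rows in either direction. These were Crebbp, an acetyltransferase that coactivates KLF proteins, at 1.20, Wwp1, a ubiquitin ligase known to target KLF5, at 0.56, and Kat2b, another acetyltransferase, at 0.52 on the log2 scale.

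Of 14 listed genes of the ERK5 and MEF2 route, which lies upstream of the flow-induced pair, 4 were measured. All 4 had a log2 difference below 0, with a median of -0.31, but 0 passed, and 1, Mef2d, had an unadjusted p under 0.05, against 6.19% of all rows on the lower side. Mef2d, a MEF2 transcription factor, differed by -0.50 (adjusted p = 0.366, limma). The other 3 overlapped between the regimens, among them Mef2a at -0.34 and Map2k5, the kinase that activates ERK5, at -0.27. Of 13 measured genes listed as endothelial targets of KLF2 and KLF4, 9 lay below and 4 above 0, with a median of -0.42 over all arrays. With 1 array left out the median ran from -0.60 (aggressive array 2) to -0.12 (aggressive array 3). Without aggressive arrays 1 and 3 it was -0.46. Of the 13 genes, 1 passed, lower, against 0.114% of all rows, and 5 had an unadjusted p under 0.05, all lower, against 6.19%. Thbd, thrombomodulin, which KLF2 is known to induce, differed by -0.70 (adjusted p = 0.217, limma). Nos3, endothelial nitric oxide synthase, which KLF2 is also known to induce, differed by 0.20 with overlapping groups, and Gja4, a gap junction connexin, by 0.42 without overlap (adjusted p = 0.759 and 0.449, limma). The list also held Cnp, a cyclic nucleotide phosphodiesterase gene at -0.70 that entered through the abbreviation of C-type natriuretic peptide. Without it, the remaining 12 genes had a median of -0.28, and 4 had an unadjusted p under 0.05.

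Of 13 listed endothelial markers, 4 were measured, with a median log2 difference of -0.03 and 0 at an unadjusted p under 0.05, and their sum was 3286 to 3798 in the limited and 3524 to 4331 in the aggressive arrays. Kupffer cell markers had a difference above 0 in all 9 measured genes, with a median of 0.73 and sums of 43962 to 50988 in the limited and 29309 to 34427 in the aggressive arrays, 6 having an unadjusted p under 0.05 and 0 an adjusted one, against 13.1% and 0.114% of all rows in either direction. The part of macrophage RNA in the Krüppel-like factor values was not tested. Stellate cell and fibroblast markers had a median of 0.12 over 9 genes, with 0 at an unadjusted p under 0.05. Hepatocyte markers were bright, as the label liver implies, with all 9 measured, a median difference of -0.05 and mean intensities between 5942 for Hnf4a and 47434 for Alb in the limited arrays.

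Glucocorticoid-responsive genes, the class to which Klf9 belongs, had a median log2 difference of -0.44 over 19 measured genes. Of these, 3 passed, all lower (Sds, Ddit4 and Tat), against 0.114% of all rows. At an unadjusted p under 0.05 there were 11 lower members and 1 higher member, against 6.19% of all rows for the lower side. Tat, an enzyme of tyrosine breakdown and a long-used reporter of glucocorticoid action, differed by -1.48, against -0.63 for Klf9. The list was not uniform: 14 members lay below and 5 above 0. Angptl4, the higher member, differed by 1.24 (adjusted p = 0.150, limma). The part of glucocorticoid action in the Klf9 value was not tested. Genes of amino acid and glucose metabolism linked to Klf15 had a median of -0.15 over 18. The adjusted test passed 1, lower, against 0.114% of all rows, which was Tat again. An unadjusted p under 0.05 was reached by 5 lower and 1 higher member, against 13.1% of all rows in either direction. G6pc1, glucose-6-phosphatase, differed by -1.06 and Got1, aspartate aminotransferase, by -0.92, without passing, while Klf15 itself differed by -0.14.

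The genes of transforming growth factor beta signalling had a median of -0.20 over 15 measured, of which 9 lay below 0. The adjusted test passed 1, lower, against 0.114% of all rows, and 4 had an unadjusted p under 0.05, all lower, against 6.19%. Acvrl1, an endothelial receptor of the pathway, differed by -1.09 and Tgif1, a repressor of its targets, by -0.67. Clock genes, whose rhythm Klf9, Klf10 and Klf15 share in liver, lay 7 below and 7 above 0, with 0 passing. At an unadjusted p under 0.05 there were 4 lower and 2 higher, against 13.1% of all rows in either direction. The groups did not overlap in 4 on the lower side, against 9.76% of all rows. They did not overlap in 5 on the higher side, where the share of all rows was not computed. Nr1d1, the repressor REV-ERB alpha, and Dbp, a clock output factor, were higher under limited resuscitation by 1.14 and 1.30, and Nfil3, the repressor that competes with Dbp for its sites, was lower, at -0.79. Of 9 thyroid hormone genes, chosen because Klf9 is a thyroid hormone target, 3 lower and 1 higher had an unadjusted p under 0.05. The share of all rows in either direction was 13.1%. The adjusted test passed 1, against 0.114% of all rows: Dio3, which inactivates the hormone, at -2.78 (adjusted p = 0.0425, limma). Dio2, which activates it, was very dim and differed by -1.65, and Thrsp, a lipogenic target of the hormone, by 0.51. Against aggressive array 2 alone, the median was -0.36 for the glucocorticoid-responsive list, -0.05 for the Klf15 list and -0.0026 for the clock. The list around transforming growth factor beta had -0.08. It was -0.46 for the endothelial targets, -0.25 for the ERK5 and MEF2 route and 0.09 for the thyroid hormone genes. For cofactors and turnover enzymes it was 0.24, and for other KLF and SP factors 0.35. When any 1 array was left out, 0 to 2 rows of the whole table passed. A fit on fewer arrays is also less precise, so this count does not show that a given gene depends on each array.

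**Figure D4:**
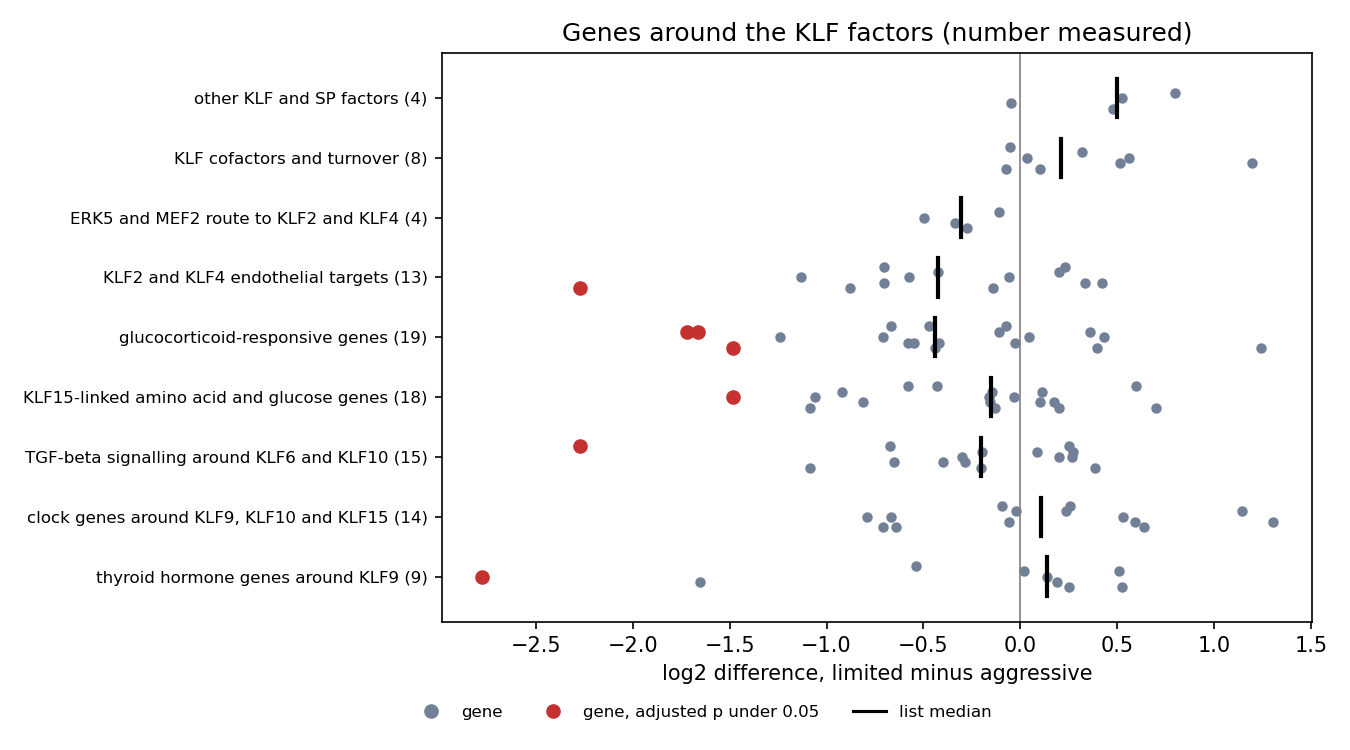
Log2 difference, limited minus aggressive, of every measured gene of 9 lists around the Krüppel-like factors, with the number measured in brackets, list medians as black bars and genes with an adjusted p under 0.05 in red. Medians run from -0.44 for glucocorticoid-responsive genes to 0.50 for the 4 other KLF and SP factors, and each red point lies on the lower side.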

How the data were processed

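The authors deposited 1 intensity per transcript and array from 1-colour Cy3 NimbleGen arrays of 6 livers, per the labels. RMA (background correction, normalisation between arrays, probe summary) stands in the submitters' processing notes, with version, scanner, build, filters and signal over background not given in the sources used here. Precision is limited by the number of arrays.

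Unversioned accessions were matched to RefSeq symbols (GRCr8), naming 7223 of 19345 rows, and log2 of the linear values was fitted with limma 3.58.1 (R 4.3.3, two-sided) with Benjamini-Hochberg adjustment over all rows at 0.05. Nothing in the labels says more of the replicates than that they are separate samples, so p-values measure the spread between these. Members, lists and tests were chosen with earlier results of these data known. Named by rule are the 7 members, per pathway list the 3 genes of smallest p and those that passed, and per member the 3 nearest profiles, except 3 genes that these rules pick and that are not reported here. Cell type markers had no naming rule. Sp1, Hnf4a, Alb, Gja4, Nos3, Angptl4, Car4 and Pdpn were named after their values were seen. Simulated data of 19345 rows gave calls for 9 of 100 rows shifted 2-fold and 74 of 100 shifted 4-fold, 0 with the wrong sign, and for 8 unshifted rows. Alternatives covered normalisation, dim rows, variance priors, array weights, a replicate block, rows per symbol, treat and arrays left out. Figures used matplotlib 3.10.9.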

Additional observations from a re-analysis of the deposited data

How the results depend on the processing

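Of the 7 genes, Klf5, Klf6, Klf9, Klf10 and Klf15 kept their direction under each alternative run. Klf2 turned to 0.019 without aggressive array 3. Klf4 turned to 0.071 without that array and to 0.33 without aggressive arrays 1 and 3. The cause was not tested. When any 1 array was left out, the difference ranged from -0.25 to 0.019 for Klf2, -0.50 to 0.071 for Klf4, -1.48 to -0.98 for Klf5, -1.23 to -1.03 for Klf6, -0.79 to -0.50 for Klf9, 0.05 to 0.38 for Klf10 and -0.26 to -0.02 for Klf15, and 0 of the 7 passed. Klf6 (-1.13) passed with the intensity trend and robust prior, without dim rows, with 1 row per symbol (adjusted p = 0.0430, limma) and with the mean of rows per symbol (adjusted p = 0.0427, limma), the last pair testing fewer rows, and Klf9 (-0.63) passed with the trend and robust prior. Members that passed thus numbered 2, 1, 1 and 1 in those settings, in the order given, against 0. Each member has 1 row, so other rows of a member could not be tested, and Klf2, Klf4 and Klf5 have no value without dim rows.

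Rows that passed numbered 22, against 483 without dim rows, 570 with the trend and robust prior, 58 with 1 row per symbol and with the mean of rows per symbol, 0 with the replicate block, 0 with treat, 0 without aggressive arrays 1 and 3, and 0 to 2 when any 1 array was left out, 2 being without aggressive array 2. Members at an unadjusted p under 0.05 numbered 3, against 1 without aggressive arrays 1 and 3, 1 with treat, and 2 to 3 with 1 array left out. With a 2-fold difference as well there were 2, against 1 without dim rows, 1 without aggressive arrays 1 and 3, 1 with treat, and 1 to 2 with 1 array left out, 1 being without limited array 3. Same-numbered arrays did not deviate together (correlations of -0.06, -0.05 and 0.05). This gave no sign that the numbers pair the rats, but it cannot exclude a pairing, and the labels do not state one. With the replicate block the differences were unchanged and the adjusted p was 0.293 for Klf6, 0.337 for Klf5 and 0.415 for Klf9 (limma). Signal over background is not given, which limits the dim rows Klf5 and Klf2 most.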
